A study of Mus musculus with 9 samples.

Results

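The 45 genes described here make, use and recycle glutathione, or control the response to electrophiles and peroxides. The rule for membership uses gene symbols and no measured value: every glutathione S-transferase of the classes alpha, mu, omega, pi, theta, zeta and kappa, the microsomal transferases Mgst1 to Mgst3, the peroxidases Gpx1 to Gpx8, the enzymes of glutathione synthesis and recycling (Gclc, Gclm, Gss and Gsr), the thioredoxin reductases Txnrd1 to Txnrd3, and Nqo1, Hmox1, Srxn1, Nfe2l2 and Keap1. All 45 RefSeq genes of GRCm38.p6 whose symbols fit this rule were among the 19517 genes of the authors' deposited table, and all 45 had values in all 3 comparisons.

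RNA-seq was made from ovaries of BALB/c nude females, mice without a working thymus. All of them bore a tumour grown from MDA-MB-231, a human breast cancer line. The 9 libraries formed 3 groups of 3: UT, with no treatment, CTX, given cyclophosphamide, and CAU, labelled with caulerpin (an indole alkaloid of Caulerpa green algae), where the labels do not say whether cyclophosphamide was given too. The labels give no dose, schedule or age. They number the replicates without tying them to separate mice, so the spread behind each p may be technical.

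Glutathione is a tripeptide thiol that cells make in a pair of ATP-using steps, the first by glutamate-cysteine ligase. Transferases attach it to electrophiles, peroxidases spend it on reducing peroxides, and glutathione reductase restores it with NADPH. The transcription factor NRF2, encoded by Nfe2l2 and held down by KEAP1, raises many of these genes by binding antioxidant response elements. The subject is close to cyclophosphamide, whose active metabolite breaks down to a DNA-alkylating mustard and to acrolein, both of which are conjugated to glutathione. In the ovary, glutathione is abundant in oocytes and granulosa cells.

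The authors' deposited table gives 1 log2 fold change, 1 DESeq2 p-value and 1 adjusted p per gene and comparison. Levels and values per library were not analysed here, so neither the overlap of single libraries nor the depth behind a value can be given, levels cannot be compared between genes, and the ovary label was not checked against its markers. Beside each log2 fold change stands a standard error (SE) worked back from its p. CTX against UT means CTX over UT, a reading the table does not state. With it, the p53 target Cdkn1a was at 1.99 in CTX against UT, and the opposite reading would turn every sign below. The comparisons share groups, so a value in one is not independent of the others. Fewer cells of a type and less RNA per cell cannot be told apart in whole ovaries.

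One of the 45 genes passed the test in any comparison. Gpx3, which encodes the secreted glutathione peroxidase of plasma and extracellular fluid, fell in CTX against UT. There, 1 of 45 members fell and 0 rose, while 1.29% of all 19260 genes tested changed (0.472% rose and 0.820% fell). By the authors' DESeq2 test 0 members passed in CAU against CTX, where 0.442% of 19245 genes did (0.312% rose and 0.130% fell). In CAU against UT 0 members passed, and 0.0518% of 19302 genes did (0.0311% rose and 0.0207% fell). The median log2 fold change of the 45 genes was -0.04, 0.03 and -0.03 in the 3 comparisons, against -0.03, 0.0040 and -0.0087 over all genes.

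At an unadjusted p under 0.05 the members were about as frequent as genes at large. In CTX against UT 4 members (Gpx1, Gpx3, Gsta3 and Gstt2, all lower) passed, which is 8.89%, against 10.2% of all genes tested (4.42% higher and 5.79% lower). In CAU against CTX 3 members did (Gpx2, Gpx3 and Gstm7, all higher), 6.67% against 5.36% (3.32% higher and 2.04% lower), and in CAU against UT 2 did (Gpx3 lower and Gstm7 higher), 4.44% against 3.46% (1.20% higher and 2.26% lower), in the authors' deposited table. The 95% interval lay within a 2-fold change either way for 29 of 45 members in CTX against UT, 34 in CAU against CTX and 30 in CAU against UT, against 61.8%, 65.6% and 62.0% of all genes.

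**Figure D1:**
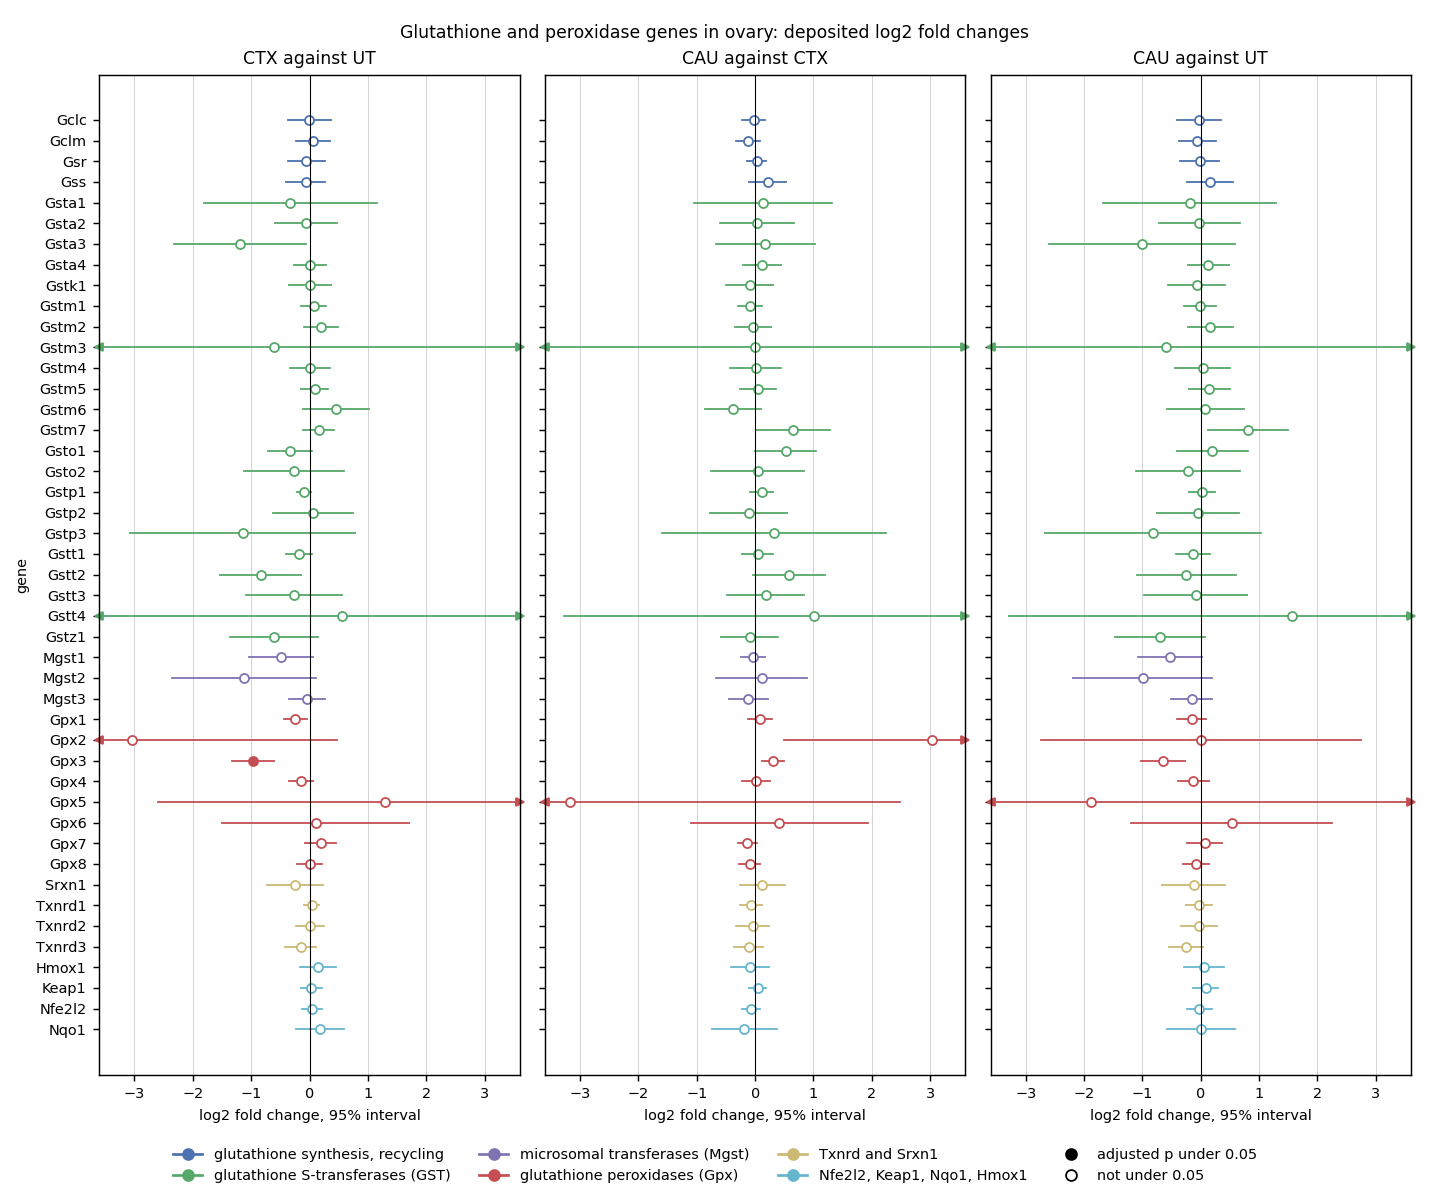
Log2 fold change (x axis) of the 45 genes (y axis, grouped and coloured by role) in the 3 comparisons of the authors' deposited table, with bars for the 95% interval from the implied SE, cut with an arrowhead where they pass the axis. The filled point, adjusted p under 0.05, is Gpx3 in CTX against UT at -0.97.

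The peroxidases differ in their active site, and that difference is shown first because the gene that changed lies on one side of it. Gpx1 to Gpx4 and the 3 thioredoxin reductases are selenoproteins: a TGA codon inside the reading frame is read as selenocysteine instead of stop. These are the 7 members with a selenocysteine codon annotated in GENCODE M21. The runs below are coding sequence, 5′ to 3′, with that codon in capitals, and for Gpx5 to Gpx8 the capitals mark the cysteine codon that aligns with the TGA of Gpx3.
Gpx3, codon 73 of 226 (GRCm38 chr11:54907256-54907258, + strand): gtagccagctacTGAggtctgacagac
Gpx1, codon 47 of 201 (chr9:108339451-108339453, + strand): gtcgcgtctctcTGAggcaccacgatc
Gpx2, codon 40 of 190 (chr12:76795256-76795258, - strand): gtggcgtcactcTGAggaacaactacc
Gpx4, codon 129 of 253 (chr10:80054737-80054739, + strand): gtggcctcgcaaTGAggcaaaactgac
Gpx5, codon 73 of 221: gtggctacctatTGCggtctgacaatc
Gpx6, codon 73 of 221: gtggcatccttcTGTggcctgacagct
Gpx7, codon 56 of 186: gtagctagcgaaTGTggcttcacagac
Gpx8, codon 79 of 209: gtggctagtgacTGCcgcttcacagac
Txnrd1, codon 612 of 613 (chr10:82896037-82896039, + strand): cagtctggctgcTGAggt
Txnrd2, codon 526 of 527 (chr16:18477772-18477774, + strand): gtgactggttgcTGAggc
Txnrd3, codon 614 of 615 (chr6:89674789-89674791, + strand): cagaaaggctgcTGAggc
In the peroxidases the codon lies well inside the frame, while in the reductases it is the last but one, directly after a cysteine codon.

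Gpx3 (NCBI gene 14778, chr11:54902854-54910387 in GRCm38.p6, protein coding) stood at a log2 fold change of -0.97 in CTX against UT in the authors' deposited table (SE 0.18, 95% interval -1.32 to -0.61, adjusted p = 6e-05). That is 0.512 of the untreated level. It ranked 34 of 19260 genes by p. In CAU against CTX it was at 0.30 (SE 0.10, interval 0.12 to 0.49, p = 0.00154, adjusted p = 0.181) and in CAU against UT at -0.65 (SE 0.19, interval -1.03 to -0.27, p = 0.000744, adjusted p = 0.319) in the authors' deposited table. Read together, the 3 values order the groups as UT above CAU above CTX, but only the gap between CTX and UT passed over all genes. If the z values of each comparison are scaled to a spread of 1, from 0.841 and 0.711, Gpx3 passes in these as well (adjusted p = 0.0196 and 0.000911 by Benjamini-Hochberg adjustment). This scaling enlarges the z of every gene in both comparisons. The share of all genes that pass under it was not counted.

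The implied SEs of Gpx3 were larger in both comparisons with UT than in CAU against CTX. For the shares that follow, each group is taken to carry an independent error, the same in both of its comparisons. The SEs then assign 76.7% of the squared error of Gpx3 to UT, 6.08% to CTX and 17.2% to CAU. UT had the largest share in 25 of the 45 genes, CAU in 19 and CTX in 1, close to the 57.8%, 35.9% and 6.32% over the 18773 genes with all 3 comparisons. The shares are estimates under that assumption, which was not checked. Without values per library they do not locate a spread in the libraries of any group. The assumption as a whole cannot hold for 2 members, Gpx5 and Gsta3, whose CTX shares came out below 0 (-14.0% and -12.3%). Whether independence or equal error across comparisons fails there was not tested. Shares above 0 do not show that the assumption holds for the other members.

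Several marker lists had medians with the signs of Gpx3, below 0 in CTX against UT, above 0 in CAU against CTX and below 0 in CAU against UT. All 13 macrophage markers were below 0 in CTX against UT (from -1.42 to -0.23, median -0.96, 6 fell), 12 were above 0 in CAU against CTX (median 0.39, 2 rose) and 13 below 0 in CAU against UT (median -0.48). The 5 erythroid markers in the table were all below 0, all above 0 and all below 0, with medians of -1.24, 0.89 and -0.34 and 0 called. All 8 surface epithelium markers were below 0 in CTX against UT (median -1.17, 1 fell) and all 8 above 0 in CAU against CTX (median 0.82). In CAU against UT 3 of them were above 0 and 5 below, with a median of -0.35. All 7 oviduct epithelium markers were below 0 and then above 0 (medians -1.09 and 0.83). In CAU against UT 2 of them were above 0 and 5 below, with a median of -0.14, and 0 were called in any comparison. Other lists had other signs. All 7 adipocyte markers were below 0 in each comparison (medians -1.54, -0.12 and -1.68, 0 called), and the 9 granulosa markers had medians of 0.55 (3 rose), -0.17 (1 fell) and 0.28. The 9 theca and luteal markers had medians of 0.16, 0.06 and 0.17 (0 called). The 9 oocyte markers had medians of 0.12, -0.11 and 0.03 (0 called). The part of these cells in the value of Gpx3 was not tested.

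The other selenium-dependent peroxidases had smaller or much less precise differences. Gpx1, the abundant cytosolic enzyme, was at -0.25 in CTX against UT in the authors' deposited table (SE 0.10, interval -0.44 to -0.05, p = 0.0151, adjusted p = 0.294), at 0.08 (SE 0.11) in CAU against CTX and at -0.16 (SE 0.13) in CAU against UT. The values of Gpx1 have the same signs as those of Gpx3 at a smaller size, and none passed. Gpx4, which reduces lipid peroxides in membranes and restrains ferroptosis, was at -0.15 (SE 0.11), 0.02 (SE 0.12) and -0.13 (SE 0.14), per the authors' deposited table. Gpx2, the enzyme of digestive epithelium, was at -3.04 (SE 1.79), 3.03 (SE 1.30, p = 0.0195, adjusted p = 0.669) and 0.0024 (SE 1.40), per the authors' deposited table. Its intervals span several log2 units, so these values fix its level in no group. Gpx2 had the signs of the macrophage, erythroid, surface epithelium and oviduct epithelium medians in CTX against UT and in CAU against CTX. Those medians are given beside Gpx3, and the part of these cells was not tested.

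The peroxidases with cysteine at the active site had values near 0 where they were precise. In the authors' deposited table, Gpx7 and Gpx8, which reside in the endoplasmic reticulum, were at 0.19 (SE 0.14) and 0.0043 (SE 0.11) in CTX against UT, and at -0.13 (SE 0.08) and -0.09 (SE 0.09) in CAU against CTX. In CAU against UT Gpx7 and Gpx8 were at 0.07 (SE 0.15) and -0.08 (SE 0.11), per the authors' deposited table. The epididymal enzyme Gpx5 and the olfactory Gpx6 had SEs of 0.77 to 4.04 and show nothing beyond that. Over the 7 selenoproteins the medians in CTX against UT, CAU against CTX and CAU against UT were -0.15, 0.02 and -0.13, and over the 38 other members they were 0.00072, 0.03 and -0.02. These medians are a description with no test, and the 7 include Gpx3, the gene for which this split was shown.

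The thioredoxin reductases, flavoenzymes that keep thioredoxin reduced, had values near 0. In the authors' deposited table Txnrd1, the cytosolic form and a known NRF2 target, was at 0.03 in CTX against UT (SE 0.07, interval -0.10 to 0.17), at -0.07 (SE 0.10) in CAU against CTX and at -0.03 (SE 0.11) in CAU against UT. Txnrd2, the mitochondrial form, lay between -0.04 and 0.0065 in the 3 comparisons (SE 0.12 to 0.16), and Txnrd3, the testis-enriched form, was at -0.15 (SE 0.14), -0.11 (SE 0.13) and -0.25 (SE 0.15), per the authors' deposited table. Srxn1, which repairs over-oxidised peroxiredoxins, was at -0.25 (SE 0.25), 0.12 (SE 0.20) and -0.12 (SE 0.27).

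Glutathione synthesis and recycling showed no difference at the precision reached. Gclc and Gclm, the catalytic and modifier subunits of glutamate-cysteine ligase, were at -0.0029 (SE 0.19) and 0.05 (SE 0.15) in CTX against UT in the authors' deposited table. In CAU against CTX Gclc and Gclm stood at -0.03 (SE 0.10) and -0.12 (SE 0.10), and in CAU against UT at -0.02 (SE 0.19) and -0.06 (SE 0.16), per the authors' deposited table. Gss, glutathione synthetase, was at -0.07 (SE 0.17), 0.22 (SE 0.16) and 0.16 (SE 0.20), and Gsr, glutathione reductase, at -0.05 (SE 0.16), 0.03 (SE 0.08) and -0.02 (SE 0.17), per the authors' deposited table. For all 4 genes, the 95% intervals lay within a 2-fold change either way in all 3 comparisons.

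NRF2 and its best known readouts were close to 0 as well. By the authors' deposited table Nfe2l2 was at 0.04 (SE 0.09), -0.07 (SE 0.08) and -0.02 (SE 0.11) in CTX against UT, CAU against CTX and CAU against UT, and Keap1 at 0.03 (SE 0.09), 0.04 (SE 0.08) and 0.08 (SE 0.11). Nqo1, a quinone reductase, was at 0.18 (SE 0.21), -0.18 (SE 0.28) and 0.0046 (SE 0.30), and Hmox1, the inducible haem oxygenase, at 0.14 (SE 0.16), -0.09 (SE 0.17) and 0.05 (SE 0.17), per the authors' deposited table. All 4 genes had positive values in CTX against UT, and none had an interval that left 0 out.

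The promoters of the members were searched for TGACNNNGC, the core of the antioxidant response element, on both strands of the window from 250 bases before to 50 after each RefSeq start (GRCm38.p6). Of the 45 genes, 40 matched a promoter entry, and Gclc, Gsr, Gsta4, Gstt2 and Hmox1 did not. The core was found in 8 of these 40 genes (20%), against 14.0% of the 27025 genes with an entry. Counted by promoter, since a gene can have several, it was found in 8 of 54 (14.8%), against 12.4% of 32851. The 8 sites are printed to show which members hold the core in this window, read 5′ to 3′ on the strand that holds the core, with the core in capitals.
Gclm (chr3:122245413-122245441, - strand): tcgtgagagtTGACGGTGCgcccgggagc
Gsta3 (chr1:21240454-21240482, + strand): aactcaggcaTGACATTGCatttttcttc
Gstm5 (chr3:107895802-107895830, + strand): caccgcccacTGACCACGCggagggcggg
Gstm7 (chr3:107931725-107931753, - strand): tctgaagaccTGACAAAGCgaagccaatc
Mgst1 (chr6:138140461-138140489, - strand): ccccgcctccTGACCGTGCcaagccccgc
Nfe2l2 (chr2:75704885-75704913, - strand): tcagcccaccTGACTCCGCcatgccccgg
Srxn1 (chr2:152105542-152105570, - strand): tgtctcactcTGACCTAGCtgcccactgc
Txnrd1 (chr10:82859104-82859132, - strand): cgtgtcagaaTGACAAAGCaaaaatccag
In CTX against UT these 8 genes ranged from -1.19 to 0.15 with a median of 0.04, and none passed in any comparison of the authors' deposited table. A match to these letters is a description and not a bound site, and enhancers outside the window were not searched.

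The 22 cytosolic and mitochondrial transferases had a median of -0.08 in CTX against UT, 0.05 in CAU against CTX and -0.04 in CAU against UT, with 0 called in each. Most of them lie in tandem arrays. RefSeq places 7 mu genes within 149 kb of chromosome 3 (Gstm5, Gstm7, Gstm6, Gstm3, Gstm2, Gstm1 and Gstm4 in order), 4 theta genes within 63.3 kb of chromosome 10, 3 pi genes within 24.2 kb of chromosome 19 and 3 of the 4 alpha genes on chromosome 9. Coding sequences are 98.1% identical between Gstp1 and Gstp2 and 97.6% between Gsta1 and Gsta2, so reads of these pairs may be split between copies and their single values are uncertain. No other pair of transferases reached 90% identity, the closest being Gstm2 and Gstm7 at 84.9%.

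Gstp1, the pi transferase often linked to resistance against alkylating drugs, had the smallest SE of all members in CTX against UT. By the authors' deposited table it was at -0.10 (SE 0.06, interval -0.22 to 0.02), then 0.11 (SE 0.10) in CAU against CTX and 0.02 (SE 0.11) in CAU against UT. Gstp2 was at 0.05 (SE 0.35) and Gstp3 at -1.15 (SE 0.98) in CTX against UT in the authors' deposited table. The narrow interval of Gstp1 is subject to the split of reads with Gstp2.

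The mu class was mostly above 0 in CTX against UT by small amounts, with 6 of 7 positive, a median of 0.09 and 0 called. In CAU against CTX 3 were above 0 and 4 below (median -0.0011, 0 called). In CAU against UT 5 were above 0 and 2 below (median 0.08, 0 called). In the authors' deposited table Gstm1, the major mu enzyme, was at 0.07 (SE 0.11) in CTX against UT, Gstm2 at 0.19 (SE 0.15), Gstm4 at 0.02 (SE 0.18), Gstm5 at 0.09 (SE 0.12) and Gstm6 at 0.45 (SE 0.29). Gstm2 was at -0.03 (SE 0.16) in CAU against CTX and 0.17 (SE 0.20) in CAU against UT, per the authors' deposited table. Gstm6 was at -0.38 (SE 0.24) in CAU against CTX and 0.08 (SE 0.34) in CAU against UT, per the authors' deposited table. Gstm7 had its highest values in the comparisons of CAU, which was not tested against its neighbours. It was at 0.65 in CAU against CTX (SE 0.32, p = 0.0449, adjusted p = 0.891) and at 0.81 in CAU against UT (SE 0.35, p = 0.0203, adjusted p above 0.99) in the authors' deposited table, and at 0.15 (SE 0.13) in CTX against UT. On the assumption about group errors stated for Gpx3, the implied SEs of Gstm7 assign 85.1% of its squared error to CAU. This share does not show the spread of the CAU libraries, whose values were not analysed. Gstm3 had SEs of 2.19 to 2.72.

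The remaining classes, theta, alpha, omega, zeta and kappa, had 0 genes called. Gstt2, a theta enzyme, was at -0.84 in CTX against UT in the authors' deposited table (SE 0.36, interval -1.54 to -0.14, p = 0.0190, adjusted p = 0.325), 0.58 (SE 0.32) in CAU against CTX and -0.25 (SE 0.43) in CAU against UT. Its neighbour Gstt1, measured more precisely, was at -0.18 (SE 0.11), 0.05 (SE 0.14) and -0.13 (SE 0.15), and Gstt3 at -0.27 (SE 0.42), 0.18 (SE 0.34) and -0.09 (SE 0.45), per the authors' deposited table. Gsta3, an alpha enzyme, was at -1.19 in CTX against UT (SE 0.58, p = 0.0396, adjusted p = 0.45), 0.17 (SE 0.43) in CAU against CTX and -1.01 (SE 0.82) in CAU against UT in the authors' deposited table. Gsta4, which conjugates the lipid aldehyde hydroxynonenal, was at 0.01 (SE 0.14), 0.11 (SE 0.17) and 0.13 (SE 0.18).

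Gsto1, an omega enzyme that reduces dehydroascorbate and glutathionylated proteins, was at -0.33 (SE 0.19), 0.52 (SE 0.27, p = 0.0509, adjusted p = 0.938) and 0.20 (SE 0.31), per the authors' deposited table. Gstz1, a zeta enzyme of tyrosine breakdown, was at -0.61 (SE 0.38), -0.10 (SE 0.25) and -0.70 (SE 0.40). The peroxisomal and mitochondrial Gstk1 stayed between -0.09 and 0.01 (SE 0.18 to 0.25). Gsta1, Gsta2, Gsto2 and Gstt4 had values from -0.33 to 0.56 in CTX against UT with SEs of 0.27 to 2.57, in the authors' deposited table.

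The 3 microsomal transferases, membrane enzymes of the MAPEG family, were below 0 in both comparisons with UT and called in neither. By the authors' deposited table Mgst1, of the endoplasmic reticulum and outer mitochondrial membrane, was at -0.49 (SE 0.28, p = 0.0815) in CTX against UT and -0.53 (SE 0.28, p = 0.0636) in CAU against UT, but at -0.04 with a much smaller SE of 0.10 in CAU against CTX. Mgst2, which can make leukotriene C4, was at -1.12 (SE 0.63), 0.11 (SE 0.40) and -0.995 (SE 0.61), and Mgst3 at -0.04 (SE 0.16), -0.12 (SE 0.17) and -0.16 (SE 0.18), per the authors' deposited table. Under the assumption about group errors stated for Gpx3, UT was assigned 87.2% of the squared error of Mgst1 and 65.7% of that of Mgst2. The values of Mgst1 and Mgst2 were lower against UT than between CAU and CTX. So were the adipocyte, macrophage, erythroid, surface epithelium and oviduct epithelium medians given beside Gpx3, but these lists differed in CAU against CTX. There the adipocyte median was -0.12. The macrophage, erythroid, surface epithelium and oviduct epithelium medians were 0.39, 0.89, 0.82 and 0.83, above the values of Mgst1 and Mgst2. The part of those cells was not tested.

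**Figure D2:**
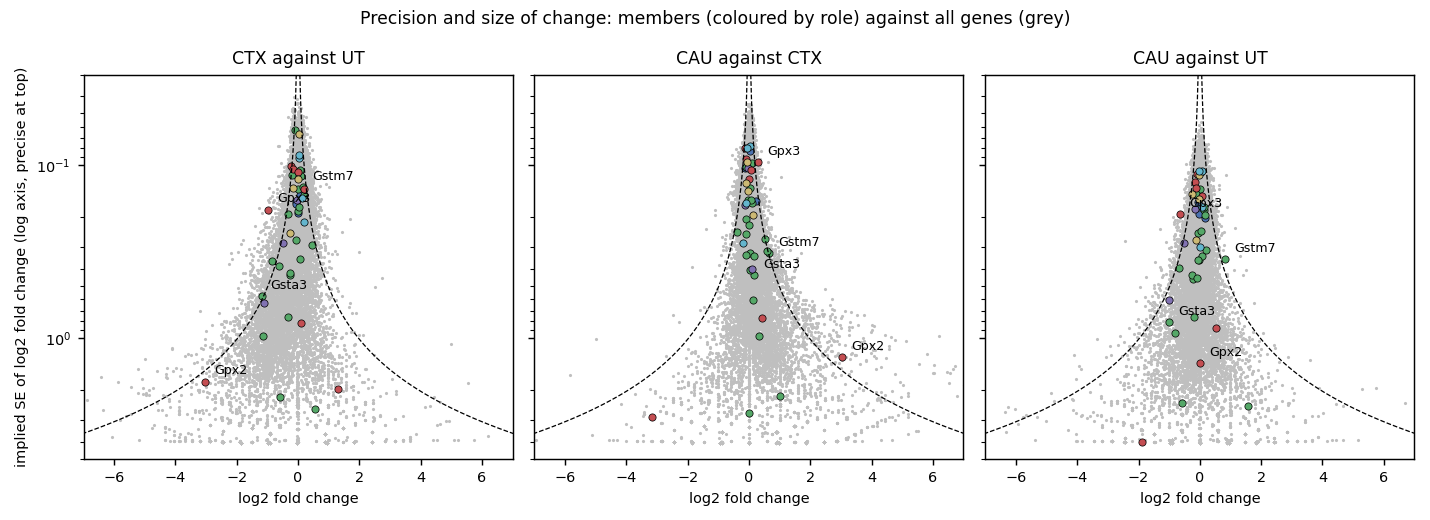
Log2 fold change (x axis, cut at 7 either way) against implied SE (y axis, log scale, small values at the top) for all genes (grey) and the 45 members (coloured by role as in the plot of all members), with dashed lines where unadjusted p is 0.05. Most members lie inside the lines, and Gpx3 lies outside them in all 3 comparisons.

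The surrounding pathway was described with 9 lists of 90 further genes, covering cystine supply, glutathione breakdown and export, peroxiredoxins and thioredoxins, superoxide dismutases and catalase, NADPH supply, other NRF2 targets, NRF2 partners, aldehyde and drug metabolism, and selenoprotein synthesis. Of these 90 genes, 0 rose and 1 fell in CTX against UT (median -0.06), where 0.472% of all genes rose and 0.820% fell. In CAU against CTX 0 of 90 passed (median -0.01), against 0.442% of all genes. In CAU against UT 0 of 89 passed (median -0.03), against 0.0518% of all genes. The gene that fell was Ftl1, the ferritin light chain that stores iron, with several near-identical pseudogenes that could share its reads, at -0.34 (SE 0.10, adjusted p = 0.0441), 0.05 (SE 0.09) and -0.28 (SE 0.12), per the authors' deposited table. With the all-gene median moved to 0, Ftl1 was at -0.31 and just missed the threshold (adjusted p = 0.0748 by Benjamini-Hochberg adjustment), as it did with scaled z values (adjusted p = 0.0523).

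Within the lists, the 13 peroxiredoxin, thioredoxin and glutaredoxin genes were measured closely. They lay between -0.22 and 0.30 in CTX against UT, and every interval was within 2-fold in all 3 comparisons of the authors' deposited table. Prdx3, the mitochondrial peroxiredoxin, was at 0.30 (SE 0.13, p = 0.0157, adjusted p = 0.298) in CTX against UT in the authors' deposited table. Selenop, the plasma carrier of selenium that supplies selenoprotein synthesis, was at -0.63 (SE 0.21, adjusted p = 0.117) in CTX against UT, 0.05 (SE 0.08) in CAU against CTX and -0.57 (SE 0.21, adjusted p = 0.885) in CAU against UT in the authors' deposited table. Like Gpx3 it encodes a secreted selenoprotein, and it did not pass in any comparison.

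The remaining lists each had their lowest p in a gene that did not pass. In CTX against UT the exporter gene Abcc5 was at 0.28 (SE 0.10, adjusted p = 0.133) and Cat, catalase, at -0.95 (SE 0.59, adjusted p = 0.661), with -1.12 (SE 0.59) for Cat in CAU against UT, in the authors' deposited table. Slc1a1, a cysteine and glutamate transporter, was at -2.02 (SE 0.95) in CTX against UT and 2.06 (SE 0.66, adjusted p = 0.210) in CAU against CTX in the authors' deposited table. The macrophage, erythroid, surface epithelium and oviduct epithelium medians had these signs. In CAU against UT Slc1a1 was at 0.05 (SE 1.26), while those medians were below 0. The part of these cells was not tested. Aldh1a2, which oxidises retinaldehyde, was at 0.50 (SE 0.23) in CTX against UT and -0.42 (SE 0.13, adjusted p = 0.129) in CAU against CTX, and Me1, an NADPH-making malic enzyme, at -0.32 (SE 0.12, adjusted p = 0.455) in CAU against CTX in the authors' deposited table. Bach2, of the family that competes with NRF2 for its sites, was at -0.44 (SE 0.22) in CAU against UT in the authors' deposited table.

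**Figure D3:**
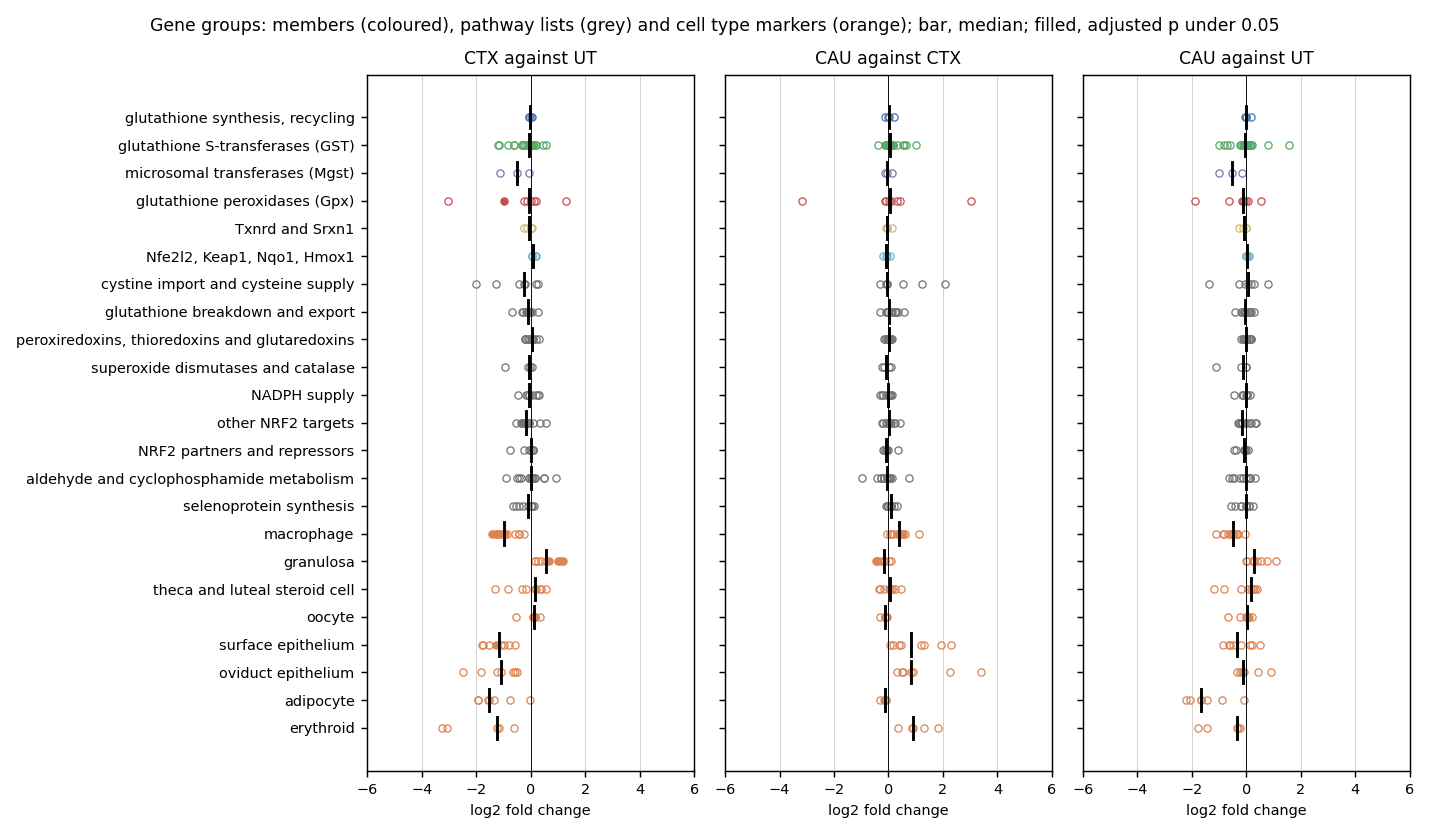
Log2 fold changes (x axis) of each gene in the 6 role groups of members (coloured), the 9 pathway lists (grey) and 8 cell type marker lists (orange) in the 3 comparisons, with a black bar at each median and filled points for adjusted p under 0.05. In CTX against UT the medians of role and pathway groups lie from -0.26 to 0.09 except for the 3 Mgst genes (-0.49), while macrophage, epithelial, adipocyte and erythroid markers lie lower, from -0.96 to -1.54.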

How the data were processed

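Libraries of ovarian RNA were made with a SMARTer mRNA kit, per the labels' protocols. Per the submitters' processing notes, the authors used RSEM 1.3.1, HISAT2, Bowtie2, GRCm38.p6 and DESeq2 1.44.0, in roles that the notes leave out. The sources used here give no strand, filter or covariate.

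The authors' deposited table, the only file, holds the authors' DESeq2 log2 fold changes, p-values and q-values (called adjusted p) for 3 pairs of groups of 3 libraries, per the file headers. The authors' test was taken as the test, with adjusted p under 0.05 called changed. The adjusted p was within 7.74e-05 of a recomputed Benjamini-Hochberg value. The 3 columns added up for all 45 genes, with the sum minus the third between -0.0091 and -0.0048, so they follow 1 sign convention.

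The implied SE is the absolute log2 fold change over the absolute z of its 2-sided p, assuming an unshrunken Wald test, and 95% intervals are normal. Depth is unknown. Positions and promoters are from RefSeq (GRCm38.p6), and codons from GENCODE M21 (GRCm38). Coding sequences were aligned with Biopython 1.88. Other work used scipy 1.17.1, numpy 2.4.6 and pandas 2.3.3 in Python 3.11.15, with plots from matplotlib 3.10.9. The code was tested on simulated data.

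The membership rule uses symbols alone, but this gene set and the lists were chosen with earlier results of these data known. Members are given with full values where adjusted or unadjusted p was under 0.05 in any comparison, where they were among the 2 highest or 2 lowest with an SE of at most 0.5, or had the smallest SE of their role. For each pathway list the called genes are named, or the gene of lowest p. Alternatives were other thresholds, the median of all genes set to 0, genes with an SE of at most 1, z scaled to a spread of 1, and leaving out similar transferases.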

Additional observations from a re-analysis of the deposited data

How the results depend on the processing

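Gpx3 was the only member called in CTX against UT at adjusted p under 0.10 and under 0.01, with the all-gene median at 0, with genes of an implied SE of at most 1, and with z divided by its robust spread. The count of members called moved from 0 to 1 in CAU against CTX and from 0 to 1 in CAU against UT with z divided by its robust spread, and the gene was Gpx3 in both. For the 90 pathway genes in CTX against UT, the count went from 1 to 0 at adjusted p under 0.01, to 0 with that median at 0 and to 0 with the scaled z. With the scaled z it went from 0 to 2 in CAU against CTX (Aldh1a2 and Slc1a1) and from 0 to 3 in CAU against UT (Aldh2, Ggt5 and Selenop). In both of these comparisons the scaling enlarges the z of every gene. The share of all genes that pass under it was not counted, so the added members and pathway genes have no background beside them. These pathway alternatives were chosen after seeing the data. All 63 named values, 21 genes in 3 comparisons, kept their sign and call with the all-gene median at 0. The median of the members moved by less than their median SE under every alternative run for it, but turned from 0.03 to -0.04 in CAU against CTX without the clustered alpha, mu, pi and theta genes. That SE is the error of a single gene (0.18, 0.17 and 0.24 in CTX against UT, CAU against CTX and CAU against UT). It is larger than the medians themselves, so the check is a loose one and does not show that they are stable. No paired analysis was possible because the table holds no values per library, and leaving out a replicate could not be run for the same reason.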
